A study of Mus musculus with 4 samples.

Results

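The matrix metalloproteinases (MMPs) and their tissue inhibitors (TIMPs) were followed in dermal white adipose tissue (dWAT), the adipose layer of the skin beneath the dermis, into which growing hair follicles reach. The 10 genes were taken by symbol from the 22913 genes listed, 7 enzymes (Mmp2, Mmp3, Mmp9, Mmp11, Mmp13, Mmp14 and Mmp19) and 3 inhibitors (Timp1, Timp2 and Timp3), and all 10 were found. dWAT was dissected from the skin of C57BL/6 mice, and 1 RNA sequencing library was made for each of 4 groups: OTD (old mice, telogen), YTD (young mice, telogen), OAD (old mice, anagen) and YAD (young mice, anagen). Telogen is the resting phase of the hair cycle and anagen its growth phase, which here was set off by depilation. Old mice were 18 months and young mice 2 months old, whereas the age tags read 18 months for the YTD sample and 2 months for the OAD sample, and the titles were followed here.

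MMPs are zinc-dependent proteases that cut collagens, laminins, proteoglycans and other parts of the extracellular matrix. They are made as inactive precursors whose prodomain blocks the catalytic zinc, and most are secreted, while Mmp14 stays anchored in the cell membrane. TIMPs are small secreted proteins that fill the active site of an MMP in an equimolar complex, so the amount of inhibitor beside the amount of enzyme bears on how much proteolysis a tissue can carry out. In fat and skin both are made mainly by stromal cells and by immune cells, and matrix turnover accompanies the growth and shrinkage of dWAT over the hair cycle.

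Values are FPKM, fragments scaled to the listed feature length and to library depth, as deposited. Positions are those of the files, on build GRCm38. Because FPKM is per length, levels of different genes are set side by side within a library. The listed lengths of the 10 members are coding lengths, so orders between genes hold for FPKM and do not settle which RNA was more abundant. A difference is that of log2(FPKM + 1) between 2 libraries, which is compressed for weakly expressed genes, and the threshold was a size of 1. Every group being a single library, no spread between replicates is known, no test could be run and no p-value is given. Neighbours in an order of levels cannot be said to differ beyond their spread. The depth, estimated from the lowest FPKM values, was 20000000 to 23400000 fragments per library, and the floor was set at 3 fragments, a limit for counting error only. Mitochondrially encoded genes took up 44.7% (YTD) and 52.7% (OTD) of all FPKM in telogen and 14.4% (YAD) and 18.3% (OAD) in anagen, and values between the phases therefore depend on the scaling. In bulk tissue, fewer cells of a type and less RNA per cell cannot be told apart.

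Timp2, Timp3, Mmp2 and Mmp14 made up most of the summed level of the 10 genes in each library. Timp2 (ENSMUSG00000017466) had 101.3 (YTD) and 172.8 (OTD) FPKM in telogen and 32.6 (YAD) and 38.1 (OAD) in anagen. Timp3 (ENSMUSG00000020044) had 85.6 (YTD) and 144.3 (OTD) FPKM in telogen and 50.6 (YAD) and 56.7 (OAD) in anagen. As deposited, both were thus highest in OTD and lower in each anagen library than in each telogen library, and in OTD they ranked 466 and 555 among all genes by level. Among the enzymes, Mmp2 had the highest level in the telogen libraries and Mmp14 in the anagen libraries, while Mmp13 stood above the floor in OTD and in no other library.

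**Figure D1:**
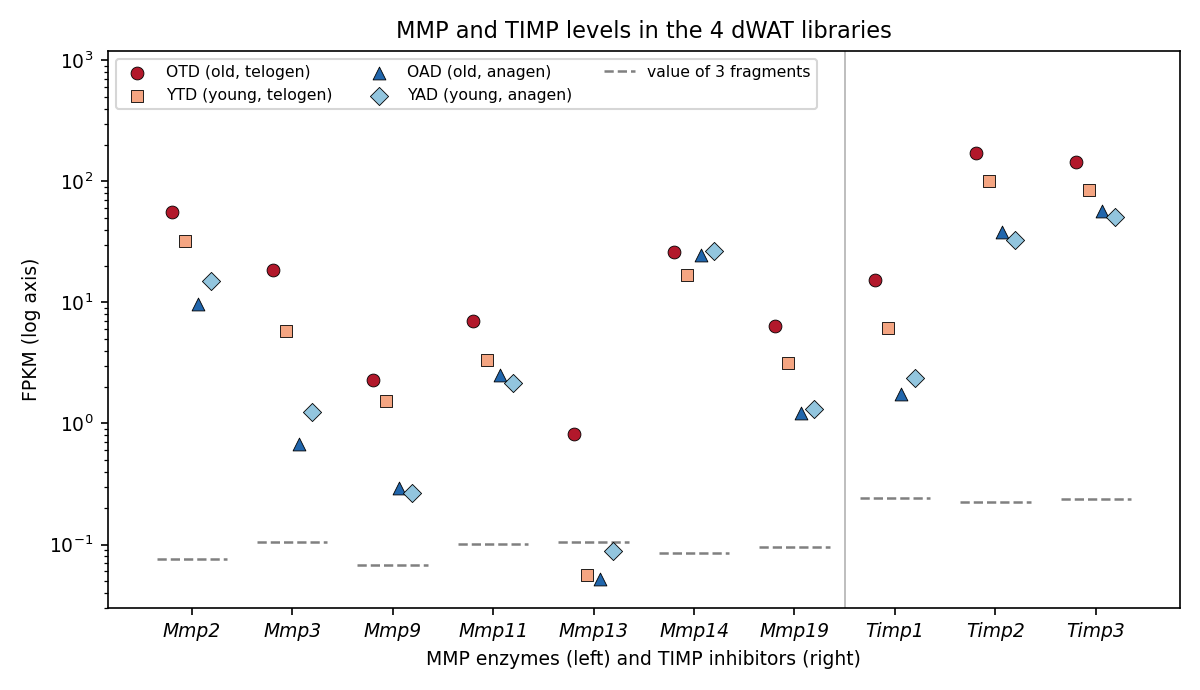
FPKM (log axis) of the 7 MMP and 3 TIMP genes, with 1 point per library and a dashed line at the FPKM that 3 fragments give, drawn at its highest over the libraries. OTD is the highest point for each gene except Mmp14, where YAD (26.7) lies just above OTD (26.2), and Mmp13 lies under the line in every library but OTD.

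Of the gelatinases, which cut denatured and basement membrane collagen, Mmp2 (ENSMUSG00000031740, chromosome 8 from 92827328 to 92853417) had 32.1 (YTD) and 56.2 (OTD) FPKM in telogen and 14.9 (YAD) and 9.71 (OAD) in anagen. It was 1.75-fold higher in OTD than YTD, and 1.53-fold higher in YAD than OAD, so its order with age was opposite in telogen and anagen. Mmp9 (ENSMUSG00000017737, chromosome 2 from 164940780 to 164955850), which neutrophils and macrophages also make, had 1.54 (YTD) and 2.28 (OTD) FPKM in telogen and 0.267 (YAD) and 0.291 (OAD) in anagen. The anagen values of Mmp9 stand for about 12.8 (YAD) and 15 (OAD) fragments, and its level was under 5% of that of Mmp2 in each library.

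Of the stromelysins, Mmp3 differed most between libraries. Mmp3 (ENSMUSG00000043613, chromosome 9 from 7445822 to 7455972), a secreted protease that cuts proteoglycans and laminin and can activate other MMP precursors, had 5.86 (YTD) and 18.6 (OTD) FPKM in telogen and 1.25 (YAD) and 0.681 (OAD) in anagen. OTD was high and both anagen libraries were low, and OTD was 27.4-fold above OAD. Mmp11 (ENSMUSG00000000901, chromosome 10 from 75923222 to 75932502), which is activated inside the cell by furin-like proteases, had 3.36 (YTD) and 7.04 (OTD) FPKM in telogen and 2.18 (YAD) and 2.54 (OAD) in anagen. OTD was the high library for Mmp11, and the other 3 lay within 1.55-fold of each other.

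Mmp13 (ENSMUSG00000050578, chromosome 9 from 7272514 to 7283333), an interstitial collagenase able to cut intact fibrillar collagen, had 0.0556 (YTD) and 0.823 (OTD) FPKM in telogen and 0.0886 (YAD) and 0.0517 (OAD) in anagen. These values stand for about 1.6 (YTD), 25 (OTD), 2.7 (YAD) and 1.7 (OAD) fragments. The ratio of OTD to YTD was 14.8, with a 95% exact interval of 2.92 to 101.9 from the rounded fragment numbers, which covers counting error only. For the 3 libraries under the floor no order can be read.

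The region before the listed start of Mmp3 and of Mmp13 is shown because AP-1, the factor that Fos and Jun proteins form, is known to act on both genes. Fos genes were among those past the threshold in telogen, and whether AP-1 acted on Mmp3 or Mmp13 here was not tested. The sequences are RefSeq's for build GRCm38.p6, 250 bases up to the listed start on the strand of the gene, which is the plus strand for all those printed, and capitals mark TGAGTCA, the AP-1 motif, on either strand and TATAAA, the TATA box. Mmp3 is at chr9:7445572-7445821, Mmp13 at chr9:7272264-7272513, and Timp1, the inhibitor past the threshold in telogen, at chrX:20869916-20870165.
Mmp3: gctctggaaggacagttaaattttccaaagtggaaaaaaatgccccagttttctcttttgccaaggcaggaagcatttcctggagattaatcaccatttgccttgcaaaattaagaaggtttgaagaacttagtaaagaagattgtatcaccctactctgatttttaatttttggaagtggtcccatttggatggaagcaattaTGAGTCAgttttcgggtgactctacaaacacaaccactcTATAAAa
Mmp13: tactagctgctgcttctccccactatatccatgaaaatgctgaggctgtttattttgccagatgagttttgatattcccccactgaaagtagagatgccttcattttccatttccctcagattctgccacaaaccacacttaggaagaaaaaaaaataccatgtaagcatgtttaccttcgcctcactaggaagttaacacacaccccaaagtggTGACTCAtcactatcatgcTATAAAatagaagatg
Timp1: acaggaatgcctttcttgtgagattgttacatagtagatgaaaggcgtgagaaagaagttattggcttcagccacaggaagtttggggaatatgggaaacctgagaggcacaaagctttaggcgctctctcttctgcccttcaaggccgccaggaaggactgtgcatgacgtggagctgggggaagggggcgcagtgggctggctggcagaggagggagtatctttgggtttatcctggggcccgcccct

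Of the 10 members, 7 had an entry in this table, and those without one were Mmp2, Mmp9 and Mmp19. TGAGTCA, whose reverse strand reads TGACTCA, began at position -46 of Mmp3 and -35 of Mmp13, counted back from the listed start, and was not found in the windows of Mmp11, Mmp14, Timp1, Timp2 and Timp3. It occurs in 4.46% of the 32851 windows of the same length. TATAAA was also found in the windows of Mmp3 and Mmp13 and in none of the other 5, against 12.4% of all windows. It began at position -7 of Mmp3 and -16 of Mmp13. Whether the listed starts are where transcription begins was not tested, and a motif outside a window would be missed. A variant searched as TGAGTAA, found in 2.25% of all windows, was in none of the 7. A match is a description of the letters, not of binding.

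Mmp14 (ENSMUSG00000000957, chromosome 14 from 54431604 to 54441258), the membrane enzyme that activates the precursor of Mmp2 with the help of Timp2, had 16.9 (YTD) and 26.2 (OTD) FPKM in telogen and 26.7 (YAD) and 24.4 (OAD) in anagen. YTD was the low library, and the other 3 lay within 1.09-fold of each other. Mmp19 (ENSMUSG00000025355, chromosome 10 from 128790953 to 128800824), a secreted MMP, had 3.13 (YTD) and 6.34 (OTD) FPKM in telogen and 1.31 (YAD) and 1.23 (OAD) in anagen. Its 3′ end overlaps the exons of Tmem198b on the opposite strand over 789 bp, outside the coding sequence of Mmp19, and without a stated strand setting reads there cannot be told apart. Tmem198b had 9.15 (YTD) and 13.1 (OTD) FPKM in telogen and 8.32 (YAD) and 7.60 (OAD) in anagen.

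Among the inhibitors, Timp1 (ENSMUSG00000001131, chromosome X from 20870166 to 20874735), a secreted inhibitor that stimulated fibroblasts and macrophages make, had 6.14 (YTD) and 15.2 (OTD) FPKM in telogen and 2.39 (YAD) and 1.76 (OAD) in anagen. The order was that of Mmp2, Mmp3 and Mmp19, with OTD highest and OAD lowest. Timp2 (chromosome 11 from 118301069 to 118355740) and Timp3 (chromosome 10 from 86300372 to 86349506), which binds to the matrix and also inhibits ADAM and ADAMTS proteases, were, as deposited, lower in both anagen libraries than in both telogen libraries, an order that turned in TPM for Timp3 in young mice. The exons of Timp3 overlap those of Syn3 on the other strand over 1733 bp, none of it coding sequence of Timp3, and Syn3 had at most 0.345 FPKM. Timp1 lies within Syn1 and Timp2 spans Cep295nl, with no shared exon bases, and both of these had at most 0.196 FPKM.

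The first comparison asked how old and young dWAT differed in telogen. Each of the 10 genes had its higher value in OTD. The differences had a median of 0.79 and ran from 0.37 for Mmp9 to 1.52 for Mmp3. The median over all 17230 genes above 0 was -0.03, and 45.8% of them were higher. Past the threshold were 2 of the 10, Mmp3 (1.52) and Timp1 (1.18), against 1.67% of all genes in that direction. The members and the gene lists used below were chosen with earlier results of these data known. Shares of all genes set beside them, here and below, are therefore descriptions only. Of the other MMP genes above 0 in telogen, 6 were higher and 4 lower in OTD. Enzymes and inhibitors had nearly the same median, 0.79 and 0.76. All 10 were higher under every scaling tried, and 6 passed the threshold when libraries were scaled without mitochondrial genes.

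**Figure D2:**
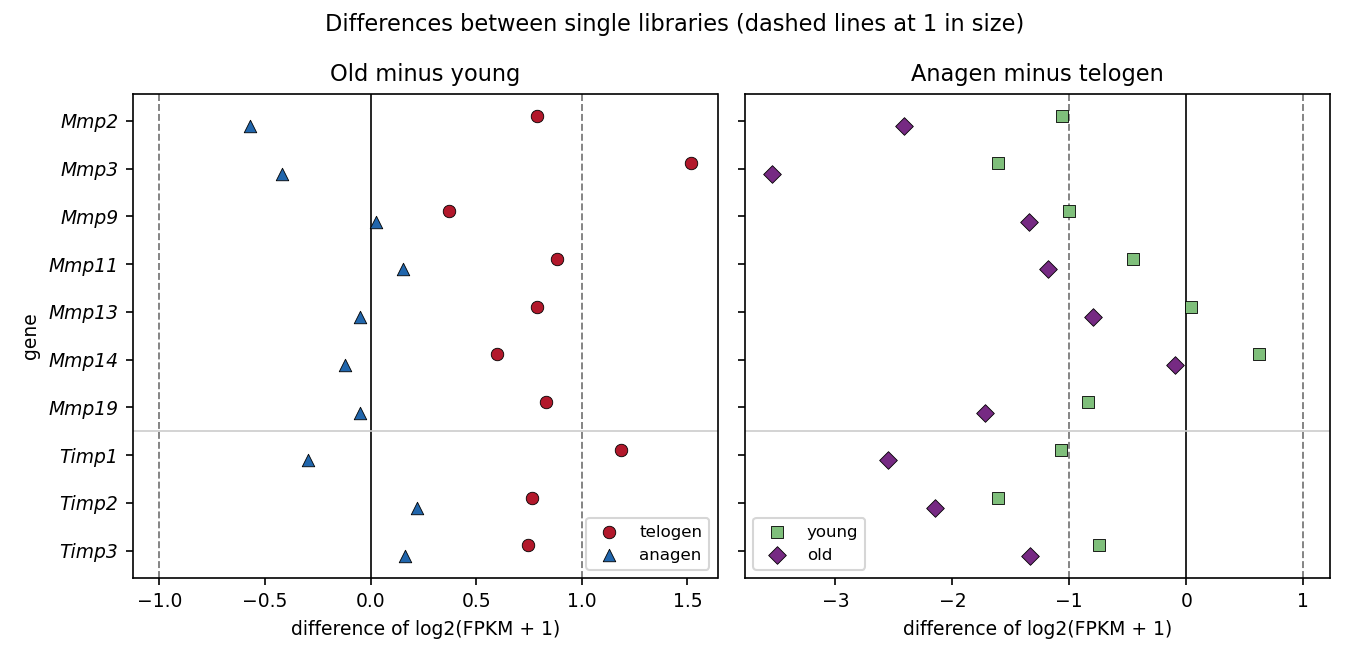
Difference of log2(FPKM + 1) for each gene between old and young libraries (left) and between anagen and telogen libraries (right), 1 point per pair of single libraries, with dashed lines at 1 in size. In telogen all 10 old minus young differences are above 0, in anagen they run from -0.57 to 0.22, and Mmp3 shows the lowest anagen minus telogen difference, -3.55 in old mice.

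The next comparison asked the same in anagen. OAD had the higher value for 4 genes (50% of all genes) and the lower value for 6 (49.9% of all genes). The median was -0.05, with single differences from -0.57 for Mmp2 to 0.22 for Timp2, and none of the 10 passed the threshold, against 1.18% of all genes in either direction. Mmp2 and Mmp3 (-0.42) and Timp1 (-0.29) were the lowest. Mmp9, Mmp11, Timp2 and Timp3 were higher as deposited by 0.03 to 0.22 and lower in TPM, where the median of all genes was -0.16, so no direction is given for them.

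Markers of other cells differed between the same libraries. In telogen, 12 of 13 macrophage markers were higher in OTD, with a summed level of 843 FPKM against 515 in YTD. Lyz2 alone had 472 against 237 FPKM, only Cd68 passed the threshold, and Cd163 was lower in OTD (3.33 against 4.67 FPKM). Fibroblast markers were higher in 9 of 10, with 1405 against 947 FPKM, and 2 passed the threshold, against 1.67% of all genes. Dcn alone had 599 against 230 FPKM, and Col1a1 was lower in OTD, with 94.5 against 133 FPKM. Endothelial markers were higher in 8 of 8, with 412 against 247 FPKM. Smooth muscle and pericyte markers were higher in 5 of 6, with 584 against 313 FPKM, while all 9 skeletal muscle markers were lower, with 49893 against 76782 FPKM. Hair matrix markers were lower in OTD in 8 of 8, 3 of them past the threshold, against 1.93% of all genes. Keratinocyte markers were lower in 7 of 8, and mast cell markers were higher in 6 of 6. Adipocyte markers were mixed, with 6 of 10 higher and 4 lower in OTD. Of the neutrophil markers above 0 in telogen, 6 of 7 were higher in OTD, with S100a9 (11.7 against 0.656 FPKM, a difference of 2.93) and Retnlg (1.25) past the threshold and Camp lower past it. Their sum, 139 FPKM in OTD and 119 in YTD, was mostly S100a8 (123 and 114 FPKM). Of the 10 listed, Mpo was at 0 in every library, and Ly6g, Ngp and Camp were at 0 in OTD. In anagen, all 13 macrophage markers and all 10 fibroblast markers were lower in OAD, with 109 against 139 and 210 against 367 FPKM. Adipocyte markers were higher in OAD in 10 of 10, with 1685 against 1253 FPKM, endothelial markers in 8 of 8, with 94.4 against 71.5 FPKM, and skeletal muscle markers in 7 of 9. Neutrophil markers were higher in 6 of 8, with 142 against 59.4 FPKM and S100a8 and S100a9 past the threshold. The part of these cells in the MMP and TIMP values was not tested.

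Across the hair cycle in young mice, 8 of the 10 genes had their lower value in YAD, against 48.8% of all genes. The median difference was -0.92, against 0.02 over all genes, and 5 were lower past the threshold, against 16.7% of all genes in that direction. These were Mmp3 (-1.61), Timp2 (-1.61), Timp1 (-1.07), Mmp2 (-1.06) and Mmp9 (-1.003). Mmp14 was higher in YAD by 0.63, that is 1.58-fold, and Mmp13 was under the floor in both libraries. The median of all genes was 0.45 in TPM, where 1 of the 10 was higher past the threshold (Mmp14) and 1 lower (Mmp3), against 40.7% of all genes in either direction, and the median of the 10 was then -0.72 relative to that of all genes. The direction of Mmp11 and Timp3, lower as deposited, turned in TPM.

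In old mice each of the 10 genes had its lower value in OAD, against 49% of all genes. The median was -1.53, against 0.01 over all genes, and 8 passed the threshold, against 15.6% of all genes that were lower past it. Mmp3 had the lowest value, -3.55, followed by Timp1 (-2.55), Mmp2 (-2.42), Timp2 (-2.15) and Mmp19 (-1.72). Mmp9, Timp3 and Mmp11 lay between -1.35 and -1.18. Mmp14 differed by -0.09 and was the 1 gene whose direction turned in TPM, to 0.50. In TPM the median of all genes was 0.32 and 6 of the 10 passed the threshold, against 36.3% of all genes in either direction. The comparisons share libraries (OTD with the telogen comparison by age, for example), so they are not independent of each other.

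Between telogen and anagen the levels of cell type markers also differed. All 8 hair matrix markers were higher past the threshold in young and in old mice, against 16.1% of all genes in each age. Their summed levels were 316 (YTD) and 179 (OTD) FPKM in telogen and 11086 (YAD) and 13817 (OAD) in anagen. Keratinocyte markers were higher in 8 of 8 in both ages, 6 of them past the threshold. Adipocyte markers were lower in anagen in 10 of 10 in both ages, with sums of 3333 (YTD), 4514 (OTD), 1253 (YAD) and 1685 (OAD) FPKM. Macrophage markers were lower past the threshold in 10 of 13 in young and 11 of 13 in old mice, and fibroblast markers in 7 of 10 and 9 of 10. Endothelial markers were lower past it in 8 of 8 in both ages. Of all genes, 16.7% (young) and 15.6% (old) were lower past the threshold. Skeletal muscle markers summed to 12183 FPKM in OAD and 9001 in YAD, and in each of the 4 libraries their sum was above that of the adipocyte markers, although the muscle layer of the skin was taken off during dissection. The part of these differences in the MMP and TIMP values was not tested.

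The balance of enzyme to inhibitor was taken within each library, so that no scaling between libraries enters it. The summed FPKM of the 7 enzymes was 63.0 (YTD) and 117 (OTD) in telogen and 46.6 (YAD) and 38.9 (OAD) in anagen, and that of the 3 inhibitors was 193 (YTD) and 332 (OTD) in telogen and 85.6 (YAD) and 96.6 (OAD) in anagen. Inhibitor FPKM thus exceeded enzyme FPKM in every library. The listed lengths are coding lengths, 663 bases for Timp2 and 636 for Timp3 against 1989 for Mmp2. If reads outside the coding sequence were also counted, the level of the ratio would change, so FPKM does not settle which RNA was more abundant. The ratio of enzyme to inhibitor was 0.326 (YTD) and 0.353 (OTD) in telogen and 0.545 (YAD) and 0.403 (OAD) in anagen. It was 1.08 times as high in OTD as in YTD, and 0.740 times as high in OAD as in YAD. From telogen to anagen it was 1.67 times as high in young and 1.14 times as high in old mice.

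**Figure D3:**
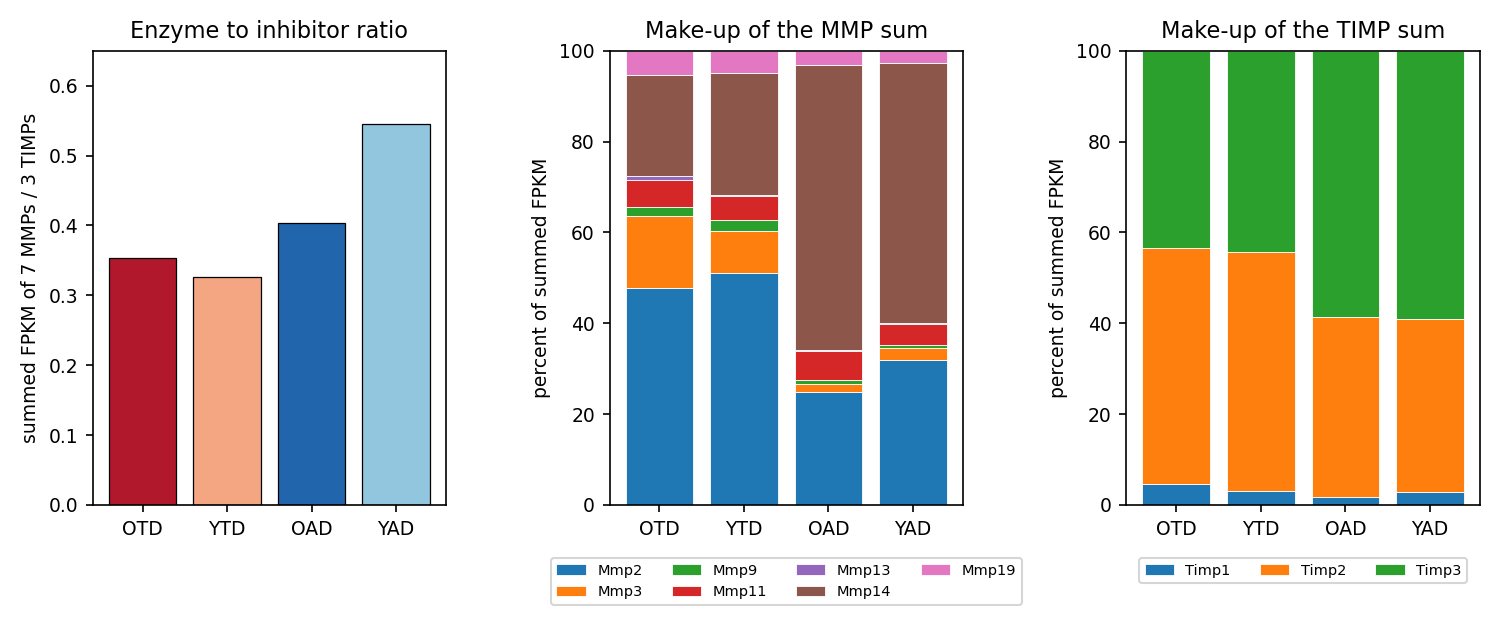
Left, ratio of the summed FPKM of 7 MMPs to that of 3 TIMPs in the libraries OTD (old, telogen), YTD (young, telogen), OAD (old, anagen) and YAD (young, anagen). Middle and right, percent of the MMP sum and of the TIMP sum held by each gene: Mmp14 goes from 22.3% and 26.9% of the MMP sum in telogen to 62.8% and 57.2% in anagen.

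The make-up of the enzyme sum differed between the phases. Mmp2 held 51.0% (YTD) and 47.8% (OTD) of it in telogen and 31.9% (YAD) and 24.9% (OAD) in anagen, while Mmp14 held 26.9% (YTD), 22.3% (OTD), 57.2% (YAD) and 62.8% (OAD). Mmp3 held 9.30% (YTD) and 15.9% (OTD) of the enzyme sum in telogen and 2.67% (YAD) and 1.75% (OAD) in anagen. Mmp14 thus led in both anagen libraries and Mmp2 in both telogen libraries. Among the inhibitors, Timp3 held 44.3% (YTD) and 43.4% (OTD) of the sum in telogen and 59.1% (YAD) and 58.7% (OAD) in anagen, and Timp1 at most 4.58%.

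The place of YAD in the order of ratios rested on Mmp14. With each of the 10 genes left out in turn, YAD kept the highest ratio in 9 of 10, the exception being Mmp14, without which the ratio was 0.239 (YTD) and 0.275 (OTD) in telogen and 0.233 (YAD) and 0.150 (OAD) in anagen. OAD stayed below YAD in 10 of 10 and OTD above YTD in 10 of 10, but from geometric means of FPKM + 1 the ratio was 0.136 in OTD and 0.143 in YTD. Over the 21 pairs of 1 enzyme and 1 inhibitor, the ratio was higher in OTD than YTD in 12, and lower in OAD than YAD in 16.

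Pairs that are known to act together gave values of their own. Mmp14 to Timp2, partners in the activation of Mmp2, was 0.167 (YTD) and 0.151 (OTD) in telogen and 0.817 (YAD) and 0.641 (OAD) in anagen. Mmp3 to Timp1 was 0.955 (YTD) and 1.22 (OTD) in telogen and 0.521 (YAD) and 0.386 (OAD) in anagen. Mmp3 thus had a higher FPKM than Timp1 in OTD only among the 4 libraries. Mmp9 to Timp1, its usual partner, was 0.251 (YTD) and 0.150 (OTD) in telogen and 0.112 (YAD) and 0.165 (OAD) in anagen.

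Of the other 16 MMP genes, 5 (Mmp1a, Mmp1b, Mmp7, Mmp10 and Mmp21) were listed at 0 in every library and Mmp25 stayed under the floor. Mmp12, the elastase of macrophages, had 1.47 (YTD) and 56.7 (OTD) FPKM in telogen and 0.833 (YAD) and 0.795 (OAD) in anagen. In OTD it matched Mmp2 as the leading MMP, and adding it to the enzymes gave ratios to the 3 inhibitors of 0.334 (YTD) and 0.524 (OTD) in telogen and 0.555 (YAD) and 0.411 (OAD) in anagen. Over all 18 expressed MMP and 4 expressed TIMP genes the ratio was 0.413 (YTD) and 0.546 (OTD) in telogen and 0.626 (YAD) and 0.470 (OAD) in anagen, so OTD then lay above OAD.

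Among the other MMPs both directions occurred in telogen. Of 10 above 0, 6 were higher and 4 lower in OTD, with a median difference of 0.13. Mmp15, a membrane-anchored MMP, had 13.9 (YTD) and 8.09 (OTD) FPKM in telogen and 4.59 (YAD) and 3.92 (OAD) in anagen. Mmp28 had 6.495 (YTD) and 5.92 (OTD) FPKM in telogen and 1.87 (YAD) and 1.64 (OAD) in anagen, and Mmp24 had 3.78 (YTD), 2.74 (OTD), 1.04 (YAD) and 1.46 (OAD) FPKM. All 3 were thus lower in OTD than YTD, by less than the threshold. Mmp23 differed by 0.13, Mmp27 by 0.18 and Mmp17 by 0.43 in telogen. Mmp16 had 0.347 FPKM in OTD and 0.0263 in YTD, a ratio of 13.2 with an exact interval of 1.99 to 554 from about 14 against 1 fragments, but in anagen it had 0.329 in OAD and 0.406 in YAD. Timp4, the TIMP of fat and heart, had 44.2 (YTD) and 38.4 (OTD) FPKM in telogen and 10.2 (YAD) and 10.7 (OAD) in anagen, and so was the 1 TIMP gene not higher in OTD.

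A set of 10 MMP genes, with Mmp3 and Mmp13 among them, lie in a cluster on chromosome 9 from 7272514 to 7699585, which holds 1 other listed gene. Of these, 6 were above the floor in a library. In telogen the differences were 0.79 for Mmp13, 4.55 for Mmp12 and 1.52 for Mmp3, against 0.12 for Mmp8 and 0.18 for Mmp27, and Mmp20, an enamel protease, was listed at 0 in both. The 3 genes with the larger differences lie next to each other at the start of the cluster, apart from Mmp1b, listed at 0 in every library, which comes between Mmp12 and Mmp3. In anagen the 6 genes differed by -0.42 (Mmp3) to 0.31 (Mmp20), and Mmp20 had 0.472 FPKM in OAD and 0.190 in YAD.

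**Figure D4:**
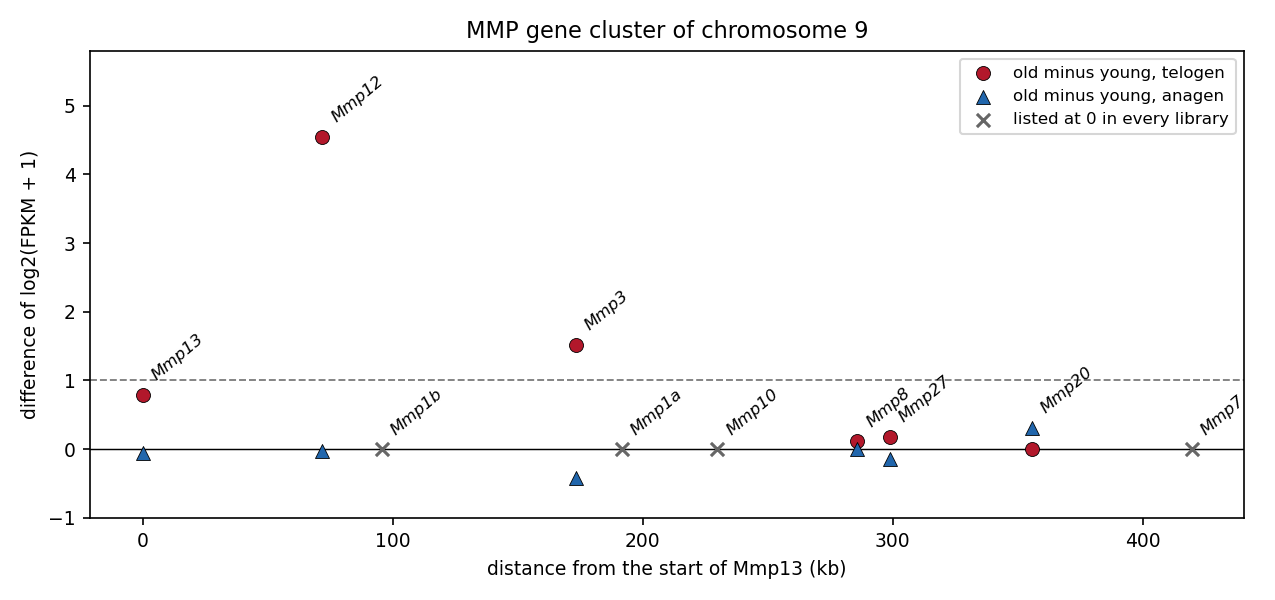
Difference of log2(FPKM + 1) between old and young libraries in telogen (circles) and anagen (triangles) for the MMP genes of the chromosome 9 cluster, against distance from the start of Mmp13 in kb. Mmp12 (4.55) and Mmp3 (1.52) lie above the dashed line at 1 in telogen, crosses mark the 4 genes listed at 0 in every library, and in anagen no gene reaches the line.

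Genes that work with or on these enzymes were read from 7 lists. In telogen, 13 of their 88 expressed genes were higher in OTD past the threshold and none lower, against 1.67% and 1.93% of all genes. A list held the other MMPs, where Mmp12 passed. Among activators and clearance genes, 3 of 18 passed, among them Lcn2 (1.57), whose product binds Mmp9, and Plaur (1.47), the receptor of the urokinase that starts plasmin formation. Plaur had 13.6 FPKM in OTD and 4.25 in YTD, and Plau, the urokinase itself, had 14.4 and 6.88 FPKM, short of the threshold at 0.96. Of 16 ADAM and ADAMTS genes, the aggrecanases Adamts1 (1.54) and Adamts4 (1.08) passed.

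Inducers were among the genes past the threshold in telogen. Of 11 AP-1 and ETS factors, 9 were higher and 4 passed, led by Fosb (3.96) and Fos (3.31). Of 9 cytokine inducers, Il6 (2.55) and Il1b (1.33) passed, and Tnf was lower at -0.33. Other inhibitors were higher in 7 of 8 with none past the threshold, and Reck, the membrane-anchored MMP inhibitor, had 5.32 FPKM in OTD and 3.58 in YTD. Substrates showed no common direction, with 7 of 16 higher, a median of -0.02 and Dcn, the proteoglycan decorin, past the threshold at 1.38.

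In anagen by age, most of the pathway genes past the threshold were substrates. OAD had the lower value for 15 of 16, and the median was -0.59 against 0.00 over all genes, and 4 passed the threshold, namely Col1a1 (-1.90), Col1a2 (-1.80), Vcan (-1.51) and Col3a1 (-1.48). Col1a1 and Col1a2 were also on the fibroblast marker list. The collagenase Mmp13, which cuts collagen protein, was under the floor in both libraries. Any link of the MMPs with these RNA levels was not tested. Fos was higher by 1.17 and Klk6, a secreted serine protease, by 1.64. With these, 6 of 89 genes of the 7 lists passed, 2 higher and 4 lower, against 1.18% of all genes. In TPM, 1 was higher and 8 were lower, against 1.58% of all genes in either direction.

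From telogen to anagen, 8 of 90 pathway genes were higher and 17 lower past the threshold in young mice, and 5 higher and 32 lower of 88 in old mice, against 16.1% of all genes higher in either age and 16.7% (young) and 15.6% (old) lower. Serpinb2, an inhibitor of plasminogen activators, was higher by 3.85 and 4.31 and Etv4, an ETS factor, by 3.33 and 2.71. Cma1, the mast cell chymase, differed by -1.91 and -2.41, and Timp4 by -2.01 and -1.75. Of the 11 AP-1 and ETS factors, 7 were higher and 4 lower in anagen in each age, where 48.8% (young) and 49% (old) of all genes were lower. Junb was higher by 2.97 in young and by 0.87 in old mice, while in old mice Fosb (-3.97) and Fos (-2.76) were the lowest of the factors. In TPM the split of the pathway genes past the threshold was 20 higher and 3 lower in young and 12 higher and 22 lower in old mice. In TPM 40.7% (young) and 36.3% (old) of all genes passed in either direction, with medians of 0.45 and 0.32 over all genes. Bsg, which induces MMPs in neighbouring cells, had 492 (YTD) and 331 (OTD) FPKM in telogen and 265 (YAD) and 284 (OAD) in anagen.

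**Figure D5:**
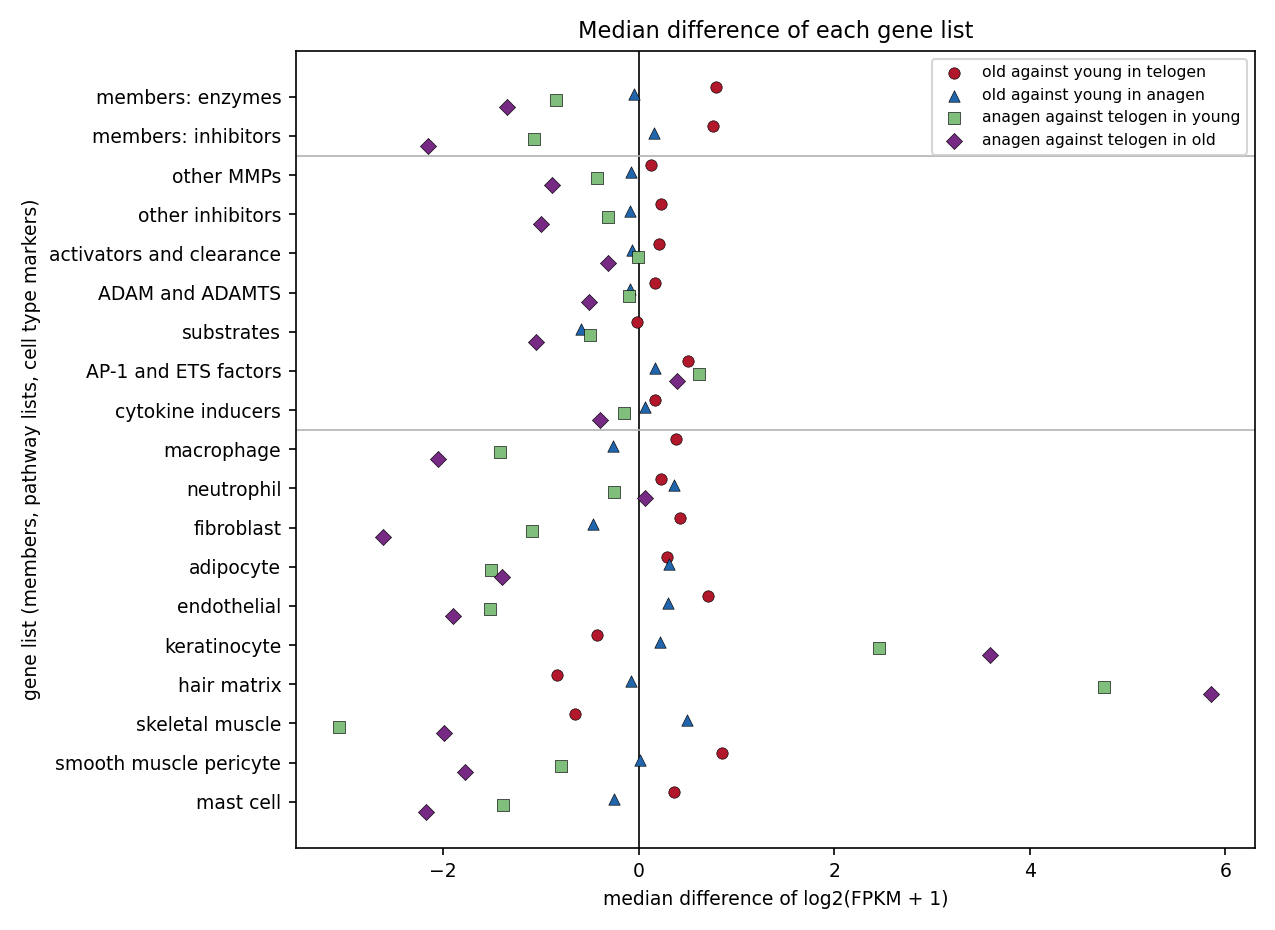
Median difference of log2(FPKM + 1) of each gene list in the 4 comparisons, with the enzymes and inhibitors at the top, pathway lists in the middle and cell type markers below. The inhibitors have medians of 0.76 (telogen by age) and -2.15 (old, anagen minus telogen), and the hair matrix markers stand highest at 4.76 and 5.86 in the comparisons of anagen with telogen.

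The genes whose pattern over the 4 libraries was closest to a member were found by Euclidean distance of log2(FPKM + 1) centred on each gene's mean, among 13568 named genes with at least 1 FPKM in a library. With 4 points, close matches are many, and the distances are descriptions. Closest to Mmp3 were Ctsk (0.12), Mpeg1 (0.30) and C7 (0.32), and Ctsk had 42.0 (YTD) and 112 (OTD) FPKM in telogen and 12.3 (YAD) and 9.71 (OAD) in anagen. Closest to Timp1 were Cd68 (0.12), Slc11a1 (0.13) and Dcn (0.19), and Angptl1 (0.05) was closest to Mmp2. Pltp (0.03) was closest to Timp2, Rftn2 (0.05) to Timp3 and Enpp3 (0.03) to Mmp19. Among the members themselves, Mmp11 and Timp3 lay closest (0.24), followed by Mmp19 and Timp3 (0.29), while Mmp2 and Timp1 were 0.35 apart.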

How the data were processed

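dWAT was sequenced as 1 library per group, and groups were taken from the sample titles. The authors deposited FPKM for 22913 genes with positions on GRCm38 and a listed length, and 97.0% of lengths are multiples of 3. For the 10 members the listed length equals the longest coding sequence in GENCODE M21. The submitters' processing notes name bcl2fastq and TopHat2, and the counting tool and annotation are not given in the sources used here. Symbols were matched for 21750 of 22166 Ensembl identifiers. FPKM were used as deposited with a pseudocount of 1, and genes above 0 in a library compared were counted. A rough depth came from the smallest FPKM, taken as 1 fragment, among genes with a listed length between 2000 and 4000 bp. The counting of differences was tested on simulated data.

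The members and lists were chosen with earlier results of these data known. Every member was named. Other names were limited to the 2 largest rises and falls past the threshold in each other list and comparison, MMP and TIMP genes above the floor, up to 3 nearest genes and overlapping genes. Bsg, Plau, Tnf, Reck, Lyz2, Cd163 and the neutrophil markers, and Vcan and Col3a1 where they complete a count, were named after their values were seen. Some genes that the rule would name are not reported here. Alternatives were pseudocounts of 0.1 and 0.01, a minimum of 1 FPKM, median of ratios scaling (11181 genes), rescaling to TPM, or to TPM without mitochondrial genes, a 1.5-fold threshold, and other make-ups of the ratio, of which adding Mmp12 or Timp4 was chosen after seeing the data. Python 3.11.15, numpy 2.4.6, pandas 2.3.3, scipy 1.17.1 and matplotlib 3.10.9 were used.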

Additional observations from a re-analysis of the deposited data

Results flagged for a closer look

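Differences of opposite sign between groups were looked for among the members, and none of them was tested, since each rests on single libraries. As deposited, old minus young differences were above 0 in telogen and below 0 in anagen for Mmp3 (1.52 and -0.42, 1.94 apart), Timp1 (1.18 and -0.29, 1.48 apart), Mmp2 (0.79 and -0.57, 1.36 apart), Mmp19 (0.83 and -0.05, 0.88 apart) and Mmp14 (0.60 and -0.12, 0.72 apart). The anagen values of Mmp19 stood for about 45.6 (OAD) and 45.2 (YAD) fragments and those of Mmp14 for 1000.3 and 1018.1, so their sign there is weak. In TPM, Mmp9, Mmp11, Timp2 and Timp3 were below 0 in anagen as well. Mmp14 also had anagen minus telogen differences of 0.63 in young and -0.09 in old mice, again 0.72 apart, and the second of these turned in TPM. The enzyme to inhibitor ratio was 1.08 times as high in OTD as in YTD and 0.740 times as high in OAD as in YAD.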

How the results depend on the processing

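No paired analysis was possible because each group has 1 library. Of 15 member differences past the threshold, none changed sign under any of the pseudocounts and scalings, and of 200 single values 8 changed sign, all of them under the threshold and 7 of them in TPM. In telogen by age, 2 members passed as deposited, against 4 with a pseudocount of 0.1, 5 with 0.01, 6 in TPM without mitochondrial genes and 9 at a 1.5-fold threshold, when 12.4%, 20.0%, 5.37% and 16.0% of all genes passed. In young mice from telogen to anagen, 5 members passed as deposited, against 2 in TPM, 3 in TPM without mitochondrial genes and 8 at 1.5-fold, when 40.7%, 37.1% and 52.3% of all genes passed. TPM divides each library by its summed FPKM, which was 1.25e+06 in YTD and in OTD, 693715 in YAD and 814616 in OAD. Differences between the phases move with these sums. Why the sums differ was not tested. Pathway genes past the threshold in telogen by age were 13, against 20 with a pseudocount of 0.1, 25 with 0.01 and 20 at 1.5-fold, of 88 and with the shares of all genes given for the members. In anagen by age they were 6, against 13 with 0.01 and 14 at 1.5-fold, of 89, when 13.8% and 4.97% of all genes passed. Between phases they were 25 in young mice, against 39 with 0.01 and 41 at 1.5-fold, of 90, when 55.4% and 52.3% of all genes passed, and 37 in old mice, against 57 at 1.5-fold, of 88, when 50.9% passed. A lower pseudocount lets low values pass, and a lower threshold passes more genes by construction.

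The enzyme to inhibitor ratio depended on its make-up. In the order OTD, YTD, OAD and YAD it was 0.736, 0.687, 0.666 and 0.880 without Timp2, 0.625, 0.586, 0.976 and 1.33 without Timp3, and 0.136, 0.143, 0.183 and 0.206 from geometric means of FPKM + 1, where OTD lay below YTD. Without Mmp2 it was 0.184 in OTD and 0.160 in YTD, and without Mmp14 0.150 in OAD and 0.233 in YAD. Over all expressed MMP and TIMP genes it was 0.546 in OTD. Depth limits Mmp13, Mmp8 and Mmp25, which had fewer than 4 fragments in at least 3 libraries.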
